A study of Mus musculus with 8 samples.

Results

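In MIN6 cells, 9 genes that mark islet cells other than beta and alpha cells, or the progenitors of the pancreas, were examined for open chromatin with and without added Klf4. They were 9 of 21887 protein-coding genes: Sst, Hhex, Ppy, Pyy, Ghrl, Neurog3, Sox9, Ptf1a and Onecut1. MIN6 is an established mouse insulinoma line that serves as a beta cell model. Its cells, labelled WT, were transfected for 48 hours with pGloMyc-Klf4, a plasmid that expresses the zinc finger transcription factor Klf4, or with the pcDNA 3 empty vector. ATAC-seq, in which a transposase cuts and tags accessible DNA, was run on 4 libraries per plasmid, 8 in all. The values are 1 merged list of accessible regions (peaks) per plasmid, so the spread between libraries is not known and no difference was tested. Shares of peaks carry exact Clopper-Pearson 95% intervals, which cover counting error only. The libraries' read depth is unknown, since the lists hold no read counts.

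For each gene, peaks were counted in a window that reaches 25 kb past both ends of the gene, in mm10 coordinates. A peak was called matched when a peak of the other list overlapped it by at least 1 bp. The rest are called Klf4-only and empty-vector-only peaks. The windows held 48 of the 128538 Klf4 peaks and 24 of the 100099 empty vector peaks on chromosomes 1 to 19, X and Y. The windows of Ppy and Pyy overlap, and a peak in both was counted once in totals.

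In the islet, somatostatin is made by delta cells, pancreatic polypeptide by gamma cells and ghrelin by the rare epsilon cells. All of these cells and the beta cells descend from progenitors that transiently express Neurog3, which starts the endocrine programme. Those arise in turn from a pancreatic epithelium in which Sox9, Ptf1a and Onecut1 act, and Sox9 later marks ducts while Ptf1a marks acinar cells. Mature beta cells normally keep these progenitor genes and the other hormone genes silent or low. The beta cell label was checked against 9 beta cell genes: all 9 had a peak inside the gene body in both lists. Of 5 acinar genes, the empty vector list had such a peak at 1 and the Klf4 list at 2, and of 3 duct genes also 1 and 2. The single genes used for alpha, immune and endothelial cells and both genes for mesenchyme had one in both lists, so a peak in the gene body does not tell these cell types apart.

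RefSeq's promoter table, on GRCm38.p6 (the assembly behind mm10), held 8 of the 9 genes and did not hold Sox9. The 250 bases before the start are given for 6 genes whose peaks differ in where they lie. A Klf4-only peak covered the start of Ptf1a (chr2:19445413-19445662, plus strand) and Pyy (chr11:102107833-102108082, minus strand). A peak of both lists covered the start of Neurog3 (chr10:62132840-62133089, plus strand). At Hhex (chr19:37434591-37434840, plus strand) and Onecut1 (chr9:74861671-74861920, plus strand) a Klf4-only peak lay just inside the gene. Neither list had a peak at the start of Sst (chr16:23890845-23891094, minus strand). Capitals mark CACCC and GGGCGG on either strand (GGGTG and CCGCCC on the other), short forms of the sites that Klf4 and related factors bind, and TGACGTCA, the cyclic AMP response element.
Ptf1a: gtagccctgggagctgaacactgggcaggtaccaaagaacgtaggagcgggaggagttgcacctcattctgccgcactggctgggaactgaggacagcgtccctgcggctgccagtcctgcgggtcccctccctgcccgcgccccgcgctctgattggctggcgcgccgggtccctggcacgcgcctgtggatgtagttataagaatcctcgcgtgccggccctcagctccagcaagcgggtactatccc
Pyy: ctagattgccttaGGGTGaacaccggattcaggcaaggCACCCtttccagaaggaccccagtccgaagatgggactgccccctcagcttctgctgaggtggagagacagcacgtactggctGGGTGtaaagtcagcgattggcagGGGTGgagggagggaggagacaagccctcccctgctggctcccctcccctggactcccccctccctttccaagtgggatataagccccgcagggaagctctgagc
Neurog3: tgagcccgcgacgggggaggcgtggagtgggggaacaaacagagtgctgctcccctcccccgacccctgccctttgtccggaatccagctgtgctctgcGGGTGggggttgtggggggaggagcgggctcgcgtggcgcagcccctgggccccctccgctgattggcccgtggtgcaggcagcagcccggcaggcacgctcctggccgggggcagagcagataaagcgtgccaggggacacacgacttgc
Hhex: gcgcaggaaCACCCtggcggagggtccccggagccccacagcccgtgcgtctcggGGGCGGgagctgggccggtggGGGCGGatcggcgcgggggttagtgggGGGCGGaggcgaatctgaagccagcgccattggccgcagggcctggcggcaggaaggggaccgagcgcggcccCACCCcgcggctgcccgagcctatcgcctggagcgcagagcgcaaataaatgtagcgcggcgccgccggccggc
Onecut1: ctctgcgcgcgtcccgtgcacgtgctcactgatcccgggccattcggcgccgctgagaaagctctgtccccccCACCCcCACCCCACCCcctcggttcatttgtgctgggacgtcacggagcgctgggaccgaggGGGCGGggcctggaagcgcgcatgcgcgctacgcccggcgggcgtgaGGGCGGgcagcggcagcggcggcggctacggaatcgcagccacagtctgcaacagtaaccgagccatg
Sst: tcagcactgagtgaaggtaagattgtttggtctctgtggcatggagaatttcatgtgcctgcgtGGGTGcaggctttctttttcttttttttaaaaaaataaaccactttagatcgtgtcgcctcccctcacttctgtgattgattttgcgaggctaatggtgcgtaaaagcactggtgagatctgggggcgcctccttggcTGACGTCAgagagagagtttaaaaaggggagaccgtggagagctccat

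CACCC was present in 54.2% of all 21263 promoters of this length on either strand, GGGCGG in 42.6% and TGACGTCA in 1.92%. The outermost Pyy promoter held 4 CACCC matches, and 2.22% of all promoters held 4 or more. The other Pyy promoter, under the same Klf4-only peak and not printed, held 2, and 22.7% of all promoters held 2 or more. Onecut1 held 3 CACCC matches, which lie next to each other between 177 and 162 bases before the start, and 2 GGGCGG matches. Hhex had 2 and 3 of them, in the same order, and 7.44% of promoters held 3 or more CACCC while 11.6% held 3 or more GGGCGG. Neurog3 and Sst had 1 CACCC each. Ptf1a, where a Klf4-only peak covered the start, had no match to any of the 3 motifs in these bases. The cyclic AMP response element of Sst stands 48 to 41 bases before the start, in a promoter that neither list called open. No pair of matches overlapped in the members' promoters. CANNTG, the E box that Neurog3 and Ptf1a proteins bind, was found 2 times at Onecut1, once at Pyy, Neurog3 and Sst, and not at Ptf1a or Hhex, and 62.8% of promoters held it. These matches describe the letters and say nothing of binding.

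**Figure D1:**
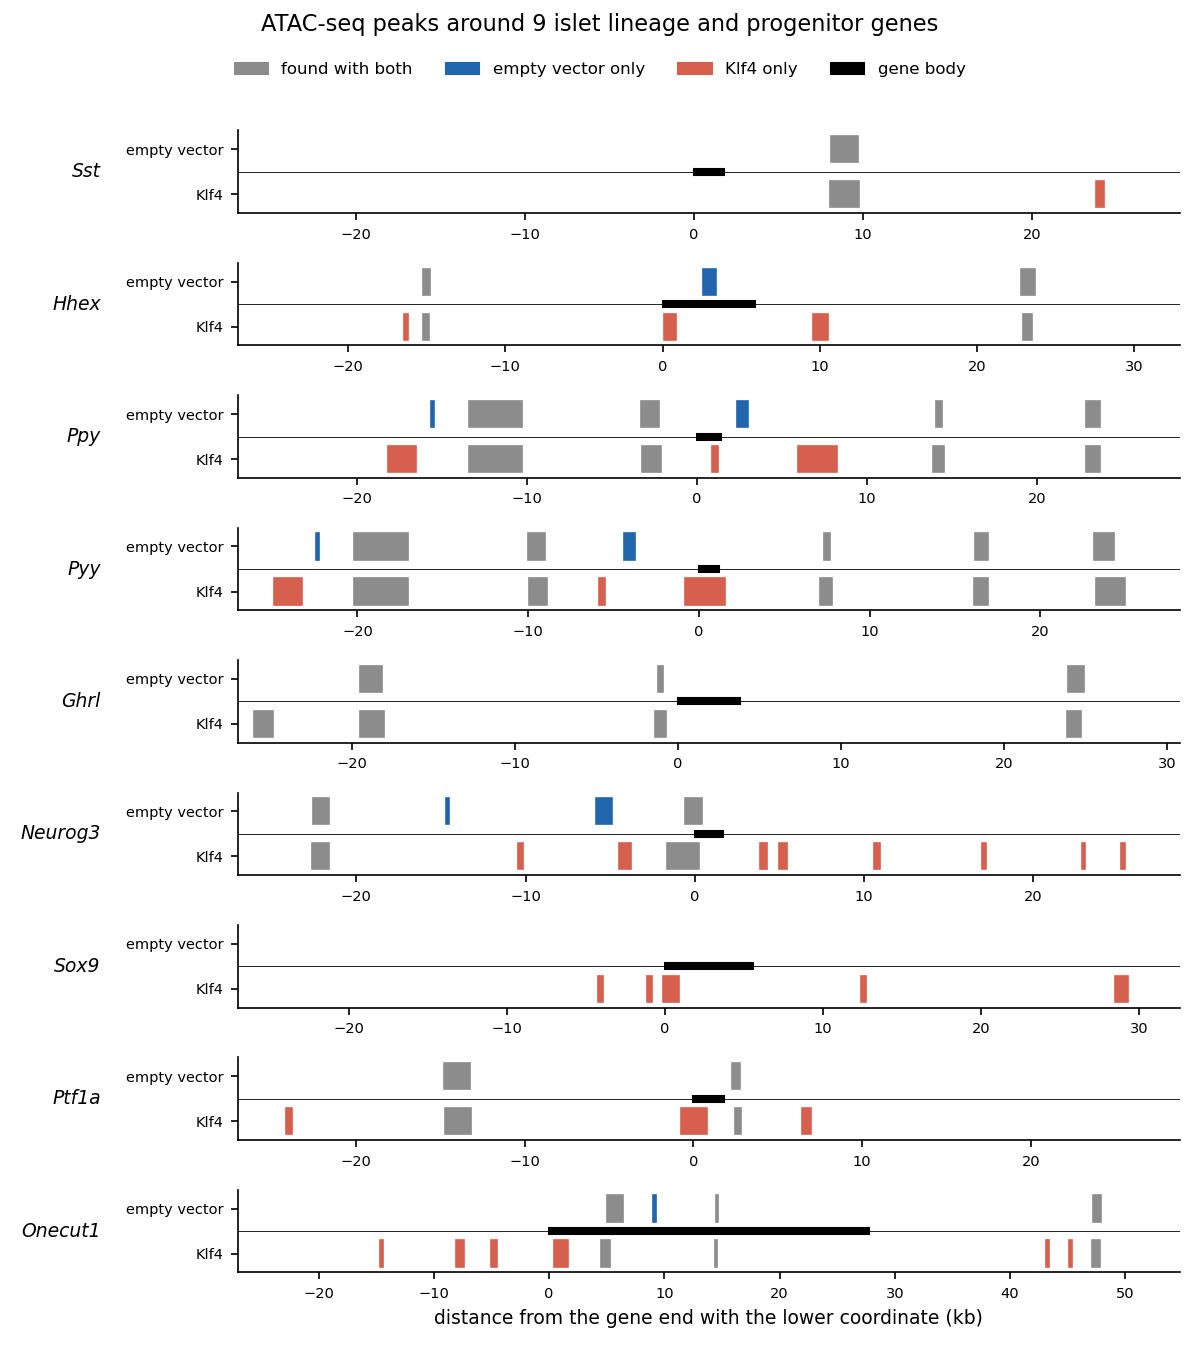
Peaks of the empty vector list (upper row of each panel) and the Klf4 list (lower row) around the 9 genes, against distance in kb from the gene end with the lower coordinate. Black bars are gene bodies and peaks are drawn to scale, coloured as found with both plasmids, with empty vector only or with Klf4 only. Sox9 has 5 Klf4 peaks and none with empty vector, and Ghrl has no list-specific peak.

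Over the 9 windows, 29 of 48 Klf4 peaks were Klf4-only, that is, 60.4% (interval 45.3 to 74.2%). The same share was 36.7% over all Klf4 peaks and 36.6% over those in the windows of all protein-coding genes. Of the 24 empty vector peaks 6 were empty-vector-only, a share of 25% (interval 9.77 to 46.7%), against 18.8% over the whole list and 17.6% in windows of protein-coding genes. The Klf4-only share was above these backgrounds. Its interval does hold a narrower one, 50.4%. That was found in windows of genes whose start is rich in CpG and has no empty vector peak within 1 kb. Rich means at least 10 CpG in 300 bases, a class set after seeing the data. Of the members only Hhex, Onecut1, Ptf1a and Sst are known to be in this class, while the interval is that of all 9 windows. Its lack of empty vector peaks near the start also leaves fewer Klf4 peaks that could be matched. Both backgrounds of the empty-vector-only share lay inside its interval. Next, only the 20000 strongest peaks of each list by p-value were counted, with matches sought in the full other list. Of these, 7 peaks of each list lay in the windows and all were matched. So were all but 2.88% of Klf4 and 0.0230% of empty vector peaks in windows of protein-coding genes at that setting. Neighbouring peaks are not independent, and the intervals treat them as if they were.

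The share is also given for the transcription factor genes and the hormone genes apart, a split made after seeing the data. At Hhex, Neurog3, Sox9, Ptf1a and Onecut1, 25 of 34 Klf4 peaks were Klf4-only (73.5%, interval 55.6 to 87.1%). At Sst, Ppy, Pyy and Ghrl 4 of 14 were (28.6%, interval 8.39 to 58.1%). For reference, the share was 36.6% in all protein-coding gene windows and 50.4% in the CpG-rich class above, which holds Hhex, Ptf1a and Onecut1. Since the split followed these same peaks, the intervals cannot place either group against these shares. All 5 Sox9 peaks count as Klf4-only because its window held no empty vector peak. Of the 4 Klf4-only peaks at hormone genes, 3 lie in the shared region of Ppy and Pyy. The difference between the 2 groups was not tested, and the intervals overlap.

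**Figure D2:**
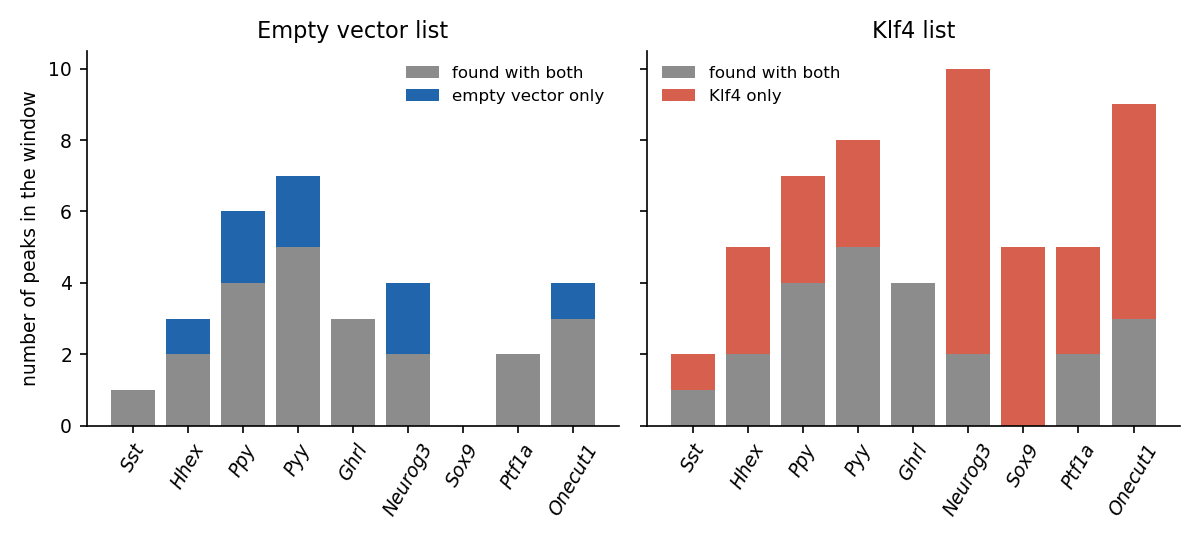
Number of peaks in each gene's window, empty vector list on the left and Klf4 list on the right, split into peaks found with both plasmids and peaks found with 1. Klf4-only peaks number 8 at Neurog3, 6 at Onecut1 and 5 at Sox9, and Ppy and Pyy share all 3 of theirs.

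The length under peaks was longer with Klf4 at all 9 genes, and 67.8% of all protein-coding genes were longer too. To compare genes, the ratio was taken as log2((Klf4 bp + 500) / (empty vector bp + 500)), in which the added 500 bp pull short lengths towards 0. The median over the members was 0.67 and that over all protein-coding genes 0.21. A ratio of at least 1.5-fold was reached upwards by 6 members (Ppy, Pyy, Neurog3, Sox9, Ptf1a and Onecut1) and by 23.0% of all genes. Ppy and Pyy share most of their peaks but count here as 2 members, and the median is the value of Ppy. Sox9 has 0 bp with the empty vector, and it is counted through the added 500 bp alone, as are all genes at 0 bp in these shares. Downwards it was reached by no member and by 1.54% of all genes. Among the genes whose empty vector coverage was no longer than the longest of the members, a limit added after seeing the data, 24.0% reached it upwards. With the 20000 strongest peaks of each list no member reached it, and 5.73% of all genes did. Limiting the lists to peaks with a −log10 q of at least 5 took Onecut1 (log2 ratio 0.27) and Pyy (0.58) below 1.5-fold and left Ptf1a with 0 bp of empty vector peaks. Limiting them to peaks of at least 500 bp took Neurog3 below it (0.26).

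**Figure D3:**
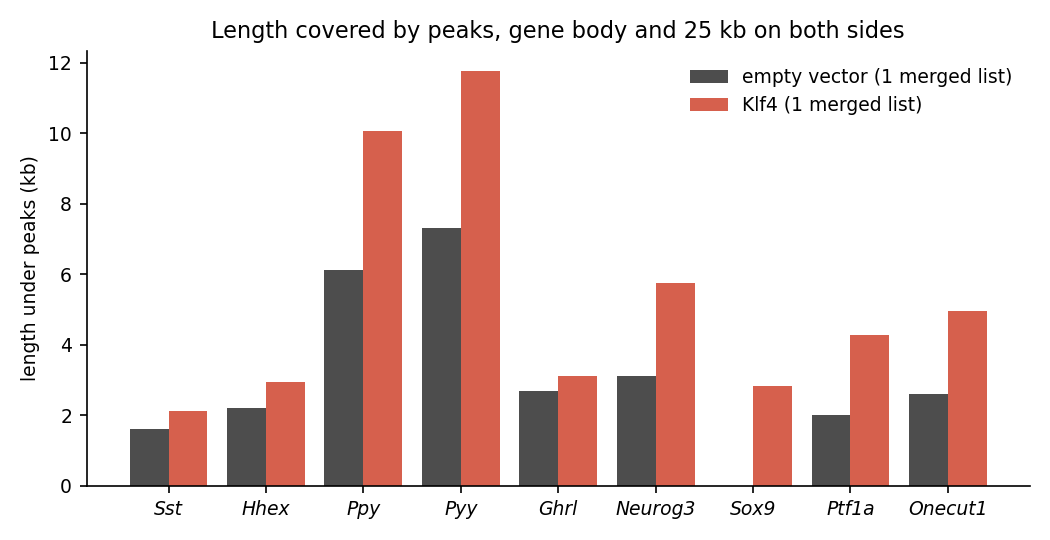
Length under peaks in kb in each gene's window, with the empty vector (dark bars) and with Klf4 (red bars), 1 merged list per bar and hence no error bar. The Klf4 bar is the taller at every gene, from 3.12 against 2.69 kb at Ghrl to 11.8 against 7.31 kb at Pyy, and Sox9 has no empty vector bar.

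Among the hormone genes, Sst, which encodes somatostatin, had the emptiest window. The empty vector list had 1 peak covering 1614 bp and the Klf4 list 2 peaks covering 2119 bp (log2 ratio 0.31). The shared peak lay upstream, 6.33 kb from the gene with the empty vector (chr16:23897668-23899281, −log10 q 13.4). The Klf4-only peak, chr16:23913387-23913842, was farther upstream, 22.0 kb from the gene, with a −log10 q of 6.69. Here −log10 q is the peak caller's strength, and 54.7% of Klf4 peaks were stronger. No peak of either list touched the gene body. By this measure neither plasmid gave a called open region at the somatostatin gene itself.

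Hhex encodes the homeodomain factor that maintains delta cells. It had 3 empty vector peaks over 2194 bp and 5 Klf4 peaks over 2939 bp (log2 ratio 0.35). Inside the gene the lists differed in place. The empty-vector-only peak, chr19:37437405-37438267 (−log10 q 10.4), lay 2564 bases past the start. The Klf4-only peak, chr19:37434936-37435675, began 95 bases past the start and, at a −log10 q of 18.7 (fold enrichment 5.82), was the strongest Klf4-only peak of all the windows. A gap of 1729 bases separated the pair. The other Klf4-only peaks were chr19:37444431-37445394 (−log10 q 11.9), 3.70 kb beyond the gene, and chr19:37418416-37418653 (−log10 q 6.23), 16.2 kb before it. Hhex thus had 1 peak inside the gene with each plasmid, at places that did not overlap.

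Ppy, the pancreatic polypeptide gene, and Pyy, the peptide YY gene, are neighbours on chromosome 11. At Ppy the empty vector list had 6 peaks over 6127 bp and the Klf4 list 7 peaks over 10051 bp (log2 ratio 0.67). At Pyy they had 7 peaks over 7314 bp, and 8 peaks over 11754 bp (log2 ratio 0.65). These are largely the same peaks, so both values describe 1 region. The widest list-specific peak of all the windows, chr11:102105858-102108184, was Klf4-only, 2327 bp wide, and covered the whole Pyy gene and its start. It had a −log10 q of 6.53 (fold enrichment 2.82), and 55.6% of Klf4 peaks of any width had a higher −log10 q. Inside Ppy lay a Klf4-only peak, chr11:102100838-102101183, whose −log10 q of 1.69 was exceeded by 96.2% of the list.

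Both empty-vector-only peaks lay in the same region. One, chr11:102102256-102102947 (−log10 q 8.19), was 937 bp upstream of Ppy, between it and Pyy, and the other was chr11:102084270-102084438 (−log10 q 6.40). The remaining Klf4-only peak of the region, chr11:102081767-102083427 (−log10 q 8.02), overlapped a promoter of the neighbouring gene Mpp2 and not one of the hormone genes. The strongest peak of this region was matched: chr11:102122826-102123609 with the empty vector, exceeded by 2.23% of that list, and chr11:102122802-102123628 with Klf4, exceeded by 2.12%. The hormone pair therefore had list-specific peaks at and between the genes, while its strong peaks were common to both lists.

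Ghrl, which encodes ghrelin, was the member with no list-specific peak, where 72.3% of all protein-coding genes had at least 1 Klf4-only peak in the window. It had 3 empty vector peaks over 2692 bp and 4 Klf4 peaks over 3116 bp (log2 ratio 0.18). The added Klf4 peak, chr6:113690077-113691294, crosses the window's edge, and its empty vector counterpart lies just outside. The strongest peak in each list, chr6:113696601-113697985 with the empty vector and chr6:113696631-113698057 with Klf4, overlapped a promoter of the neighbour Tatdn2, and another pair overlapped a promoter of Sec13. The peak nearest to Ghrl, downstream of it at chr6:113714902-113715196 with the empty vector, had a −log10 q of 5.28. No peak touched the gene body or any of its 4 promoters in the table.

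Neurog3, the basic helix-loop-helix factor that commits cells to the endocrine fate, had the most Klf4-only peaks, 8 of its 10. A count of 8 or more was found at 8.21% of all protein-coding genes. Coverage was 3105 bp in 4 empty vector peaks and 5756 bp in 10 Klf4 peaks (log2 ratio 0.80). The start was covered in both lists, by weak peaks. With the empty vector this was chr10:62132536-62133527 (992 bp, −log10 q 2.35), and with Klf4 chr10:62131479-62133340 (1862 bp, −log10 q 3.84), and 86.5% and 74.7% of the respective list were stronger. The 3 strongest Klf4-only peaks were chr10:62128623-62129307 (−log10 q 11.2), chr10:62138079-62138560 (10.5) and chr10:62150086-62150305 (7.20). The first of them lay 426 bases from an empty-vector-only peak, chr10:62127230-62128196 (−log10 q 2.18). Of the 8, 6 lay past the far end of the gene, where the empty vector list had none. The strongest peaks of the window in both lists covered a promoter of the neighbour Fam241b.

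Sox9, the SRY-box factor that maintains pancreatic progenitors and later the duct lineage, had no peak in the empty vector list. This was true of 13.9% of all protein-coding genes. The Klf4 list had 5 peaks covering 2834 bp, which are listed against an empty vector value of 0, so no fold is given. Of the 3046 genes with no empty vector peak, 14.6% had at least 1 Klf4 peak and 1.28% had 5 or more. The peak at the gene, chr11:112782060-112783114, spans the gene end with the lower coordinate and is 1055 bp wide. Its −log10 q was 2.15 (fold enrichment 2.81), and 91.3% of Klf4 peaks were stronger. Below the gene lay chr11:112781049-112781381 (−log10 q 4.32) and chr11:112777956-112778299 (2.34). Above it lay chr11:112794595-112794899 (3.78) and chr11:112810695-112811491 (5.76), which was the strongest of the 5. The nearest empty vector peak to any of them was 226317 bases away. Sox9 was thus the only member whose entire set of peaks was list-specific, and all 5 were in the weaker part of the Klf4 list.

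Ptf1a encodes the factor that drives acinar fate and, before it, the choice of pancreas over duodenum. There were 2 empty vector peaks over 2005 bp and 5 Klf4 peaks over 4284 bp (log2 ratio 0.93). The Klf4-only peak chr2:19444958-19446462 was 1505 bp wide and covered the start and the promoter given above. Its −log10 q was 14.9, and 28.6% of Klf4 peaks were stronger, which made it the second strongest Klf4-only peak of the windows. Another, chr2:19452081-19452638 (−log10 q 12.9), lay 4.58 kb past the gene, and the weakest, chr2:19421512-19421856 (2.01), 23.8 kb before it. Both empty vector peaks were matched, chr2:19430867-19432408 (−log10 q 4.16) before the gene and chr2:19447969-19448431 (3.94) just past it. At Ptf1a the start was therefore called open with Klf4 and not with the empty vector.

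Onecut1 encodes HNF6, which acts upstream of Neurog3 in pancreatic progenitors. Its window held 4 empty vector peaks over 2604 bp and 9 Klf4 peaks over 4963 bp (log2 ratio 0.82). Of the 9, 6 were Klf4-only. The 3 strongest of these were chr9:74853868-74854537 (−log10 q 6.71), upstream, and chr9:74907034-74907256 (6.58) and chr9:74905005-74905338 (5.17), past the gene. The widest, chr9:74862340-74863593 (1254 bp, −log10 q 3.09), began 419 bases past the start. The only empty-vector-only peak at Onecut1, chr9:74870949-74871213, lay inside the gene with a −log10 q of 3.32. The strongest peaks of the window, chr9:74909094-74909848 with the empty vector (−log10 q 83.0) and chr9:74909045-74909750 with Klf4 (56.5), were matched and lay beyond the gene.

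Of the 8 members in the promoter table, the 300 bases around the start (250 before and 50 after) were overlapped by an empty vector peak at 1 (Neurog3) and by a Klf4 peak at 3 (Neurog3, Pyy and Ptf1a), against 60.8% and 67.0% of all genes in the table. Of the 7 members without an empty vector peak there, 2 had a Klf4 peak, against 17.1% of all such genes.

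The Klf4-only peaks within a wider distance of starts were set against all genes in the promoter table, a comparison chosen after seeing the data. Of the 8 members in the table, 6 had no empty vector peak within 1 kb of a start, and 4 of these 6 (Hhex, Pyy, Ptf1a and Onecut1) had a Klf4 peak there. Over all such genes the share was 20.2%. It differed with the number of CpG dinucleotides, which are dense in the promoters of many developmental regulators: it was 62.0% with at least 10 CpG in the 300 bases around the start and 13.7% with fewer. Hhex had 37 CpG, Onecut1 38, Ptf1a 23 and Sst 13, so of 4 CpG-rich members 3 had the Klf4 peak, which is near that background. Pyy, with 8 CpG, and Ghrl, with at most 3, were in the other class. Of all genes of the CpG-rich class, 51.1% reached the 1.5-fold ratio upwards. Of the opposite kind, an empty vector peak near a start with no Klf4 peak there, the 2 members concerned (Ppy and Neurog3) gave no case, and all genes 0.997%. At Ppy, however, the peaks near the start did not overlap. The empty vector one, 937 bp upstream, was empty-vector-only, and the Klf4 one, inside the gene, was Klf4-only (−log10 q 1.69).

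List-specific peaks of the windows were mostly of low to middle strength, though the strongest, at Hhex, was exceeded by only 23.2% of Klf4 peaks. Klf4-only peaks had a median −log10 q of 6.23 and a range from 1.35 to 18.7, with 6 of 29 at 10 or more and none at 20 or more. Matched Klf4 peaks had a median of 13.7 and reached 122. Empty-vector-only peaks had a median of 4.86 and a range from 1.73 to 10.4. Over the whole lists the medians of the unmatched peaks were 4.75 with Klf4 and 2.63 with the empty vector. Klf4-only peaks of the windows had a median width of 416 bp, against 355 bp over the whole list, and 3 of the 29 lay within 1 kb of an empty vector peak. The whole lists differ in length in the same range of strength: at a −log10 q of 20 or more the Klf4 list was no longer the larger, with 28081 peaks against 28856. The part of sequencing depth or signal to noise in the weak Klf4-only peaks was not tested.

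**Figure D4:**
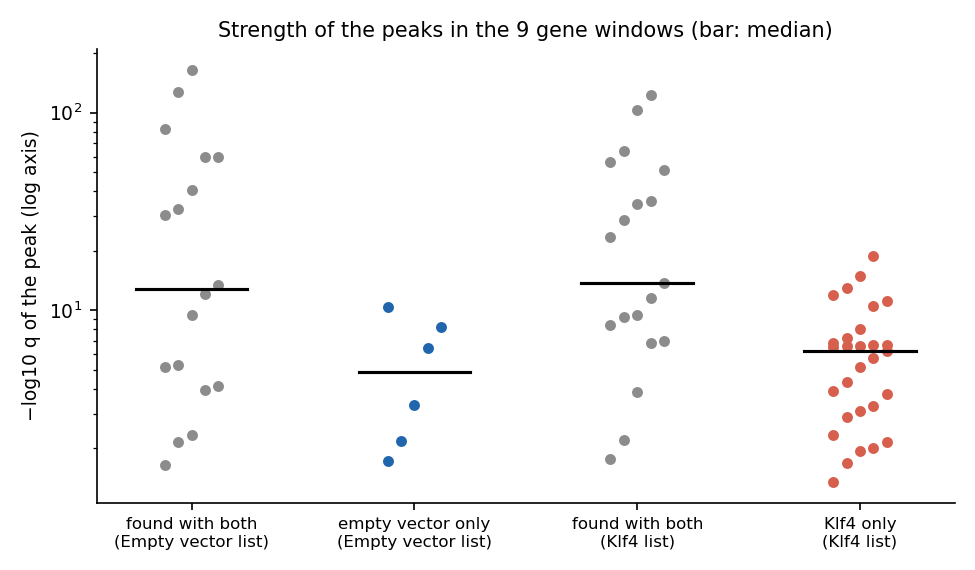
Strength (−log10 q, log axis) of every peak in the 9 windows, by list and by whether it was matched, with each peak as a point and the median as a bar. All Klf4-only points lie at or below 18.7, and matched peaks of both lists reach above 100.

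Another 44 genes of islet lineages and pancreatic progenitors were taken as a list by textbook role. Their median log2 ratio was 0.21, which is that of all protein-coding genes. Of the 44, 33 were above 0 and 11 below, and 12 reached 1.5-fold upwards and 1 downwards, against 67.8% of all protein-coding genes above 0, 23.0% past 1.5-fold upwards and 1.54% downwards. For 12 genes listed as endocrine progenitor genes, not all of them particular to progenitors, the median was −0.01. Of these, 5 were above and 7 below 0 and none was past 1.5-fold in either direction. For 24 multipotent, bipotent and duct progenitor genes it was 0.41, with 22 above and 2 below 0 and 10 past 1.5-fold upwards, beside the same 23.0% of all genes. For 8 delta, gamma and epsilon cell genes it was 0.19, with 6 above and 2 below 0, 2 past 1.5-fold upwards and 1 (Npy) downwards.

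At the ends of the list, Tcf7l2, a Wnt pathway factor, went from 1327 bp in the empty vector list to 10674 bp in the Klf4 list (log2 ratio 2.61), and Nr5a2, a nuclear receptor of acinar cells and progenitors, 690 and 4227 bp (1.99). Npy, the neuropeptide Y gene and a relative of Ppy and Pyy, had 2569 and 1506 bp (−0.61), and St18, an endocrine zinc finger factor gene, 10483 and 7539 bp (−0.45). Beside them, Neurog3 (0.80) lay above each of the 12 genes listed as endocrine progenitor genes, whose highest value was 0.37 at Chga. Those 12 had a median of 6372.5 bp with the empty vector, against 3105 bp at Neurog3. Limited to peaks of at least 500 bp, Neurog3 itself was at 0.26. The multipotent and duct genes ran from −0.29 at Spp1 to 2.61 at Tcf7l2. Every member with an empty vector peak, Neurog3, Ptf1a and Onecut1 among them, lay within that wide range. No difference between these roles was tested.

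**Figure D5:**
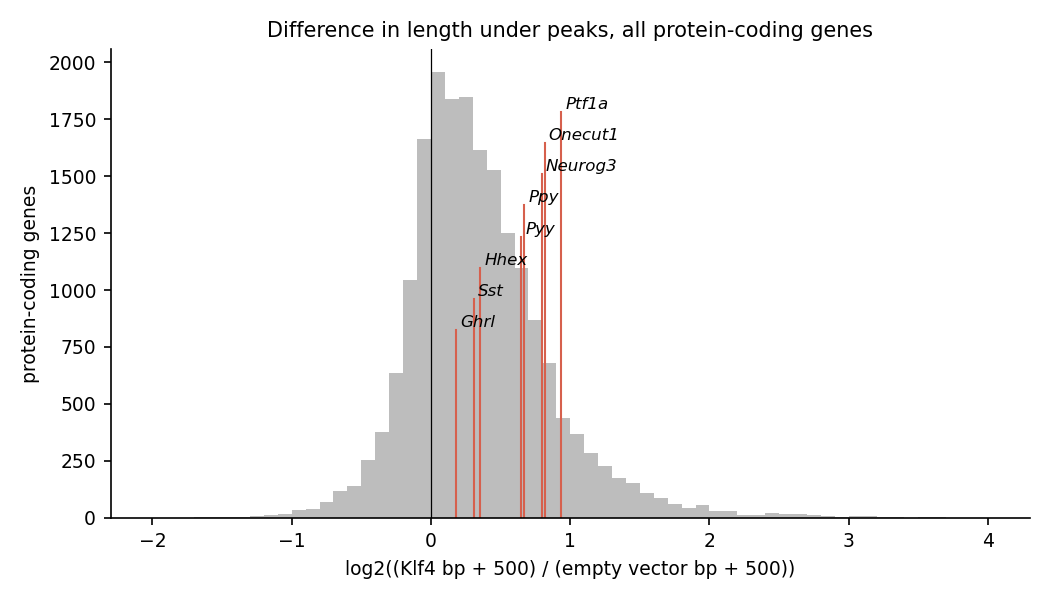
Histogram of log2((Klf4 bp + 500) / (empty vector bp + 500)) over the 19286 protein-coding genes with a peak in either list, with red lines at the 8 members that had an empty vector peak (line heights only separate the names). The axis leaves out 5 genes, and the members lie between 0.18 at Ghrl and 0.93 at Ptf1a, all right of 0.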

How the data were processed

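The labels list 4 ATAC-seq libraries per plasmid, and groups were taken from the titles. Per the submitters' processing notes, FastQC, Bowtie2, MACS2 and DiffBind were used on mm10. Versions, read filters, the transposase shift, duplicate handling and how libraries were merged are not given in the sources used here. An mRNA-seq library kit also stands in the labels, unexplained. The deposited columns give, per peak, a fold enrichment (a ratio to local background), −log10 p and q-values and a display score of 10 times −log10 q. Where both values of a matched pair are given, they stand side by side and no difference is drawn from them.

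Peaks on scaffolds (165 and 188) were left out. Gene bodies came from RefSeq's GRCm38.p6 table, where all 9 members and all 44 list genes were found, without exons. Covered length was clipped to the window. Motifs were searched in the 250 bases before the start, not in all 300 as first planned. The members and lists were chosen with earlier results of these data known. All members are described, with every list-specific peak where a gene had 5 or fewer and otherwise the 3 strongest Klf4-only ones, and the 2 highest and 2 lowest genes of the list. Further peaks and genes were named after their values were seen. Alternatives were windows of 10 and 50 kb, a −log10 q of at least 5, widths of at least 500 bp, 50% overlap, the top 20000 peaks and 100 bp added. Under the limits on strength, width and rank, shares counted the peaks kept in 1 list and sought matches in the full other list. Covered lengths used both limited lists. The matching code was run on the empty vector list against a changed copy of it: 2000 of 2000 removed and 2000 of 2000 added peaks were found. This checks the code only, since peaks left unchanged match exactly, and says nothing of 2 lists called separately. Python 3.11.15, numpy 2.4.6, pandas 2.3.3 and scipy 1.17.1 were used.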

Additional observations from a re-analysis of the deposited data

How the results depend on the processing

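No paired analysis was possible because each plasmid has a single merged list, which is also why no replicate could be left out. Without the top 20000 setting, the Klf4-only share ran from 42.9% to 70.8%, the empty-vector-only share from 18.8% to 33.3%, the members' median log2 ratio from 0.58 to 0.81 and the members past 1.5-fold from 4 to 7 (5 alternatives each). These counts include Sox9, and at a −log10 q of at least 5 also Ptf1a, which have 0 bp with the empty vector and pass through the added length alone. All 45 gene ratios stayed above 0 in these. Over all protein-coding gene windows under the same settings the ranges were 22.5% to 43.3%, 4.68% to 23.5%, 0.13 to 0.26 and 20.2% to 26.0% of genes. The Klf4-only share left its interval for peaks of at least 500 bp (42.9%, 12 of 28, against 22.5% over all gene windows). That share limits the Klf4 peaks and matches them against the full empty vector list, so a narrower partner still counts. A share with both lists limited was not computed.

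With the top 20000 peaks of each list, the Klf4-only and the empty-vector-only shares were both 0% (0 of 7 peaks in each). At 7 peaks, 3 counts would already make 42.9%, a mark of coarseness and not an exact interval. The members' median was then 0 and 0 members passed 1.5-fold, while Hhex turned to −0.39 and Onecut1 to −0.057. In that setting no more than 7 peaks were left in either list, and Sst, Sox9 and Ptf1a kept none. Over all protein-coding gene windows the shares were then 2.88% and 0.0230%, and 5.73% of genes passed 1.5-fold, so this setting says little of the members. The libraries' depth is unknown.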
